A study of Homo sapiens with 12 samples.

Results

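Metallothioneins, the zinc exporter SLC30A1 and the zinc sensor MTF1 were followed through 12 RNA sequencing libraries of melanoma cells. The members were the rows of the authors' gene count table named MT1E, MT1F, MT1G, MT1M, MT1X, MT2A, MTF1 and SLC30A1, which are 8 of 75253 rows and 8 of the 21181 rows not named by a NONCODE identifier. They were picked by name, with earlier results of these data already known. The study exposed LOX-IMVI BR and A375, established human cell lines from metastatic melanoma, to compounds directed at telomerase. The groups were LOX-IMVI BR with 6-thio-dG at 5 µM, LOX-IMVI BR with BIBR1532 at 25 µM, LOX-IMVI BR control, A375 with 6-thio-dG at 5 µM, A375 with BIBR1532 at 25 µM and A375 control. Each of the 6 groups held 2 libraries labelled as biological replicates, and all were total RNA from cells in multiwell plates. 6-thio-dG is a nucleoside analog built into telomeric DNA by telomerase, and BIBR1532 is a small molecule that inhibits the enzyme. The vehicle of the control, the exposure time and what BR means are unstated in the labels. The compounds were given at different doses, so their values stand side by side and no difference between them was tested.

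Metallothioneins are small cytosolic proteins rich in cysteine that bind zinc, copper and cadmium. MTF1 is a transcription factor that senses free zinc and binds metal response elements, short DNA motifs in the promoters of metallothionein genes and of SLC30A1. SLC30A1, also called ZnT1, sits in the plasma membrane and moves zinc out of the cytosol, and its transcript is known to be induced together with metallothioneins when cellular zinc is high. Glucocorticoids, oxidants and other metals can also induce metallothioneins. In melanoma, promoter methylation is known to silence some members of the family.

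The start of the coding sequence shows how alike the metallothioneins are, which bears on how reads are divided among them. The first coding bases of MT1E are printed with those of MT1X and MT2A, from GENCODE v29 transcripts. Each stretch covers coding bases 1 to 90, and capitals mark bases that differ from MT1E.
MT1E: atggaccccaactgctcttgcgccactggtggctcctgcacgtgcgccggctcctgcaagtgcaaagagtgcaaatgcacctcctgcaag
MT1X: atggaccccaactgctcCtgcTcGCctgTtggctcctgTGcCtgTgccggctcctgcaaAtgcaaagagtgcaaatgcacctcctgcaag
MT2A: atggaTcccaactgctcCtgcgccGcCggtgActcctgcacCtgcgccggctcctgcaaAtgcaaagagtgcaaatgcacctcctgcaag
MT1X differed from MT1E at 10 of these bases and MT2A at 7. Over the whole coding length of 183 bases, identity to MT1E ran from 90.7% for MT1X to 94.5% for MT1G. Of all stretches of 50 bases in the transcript, 5.34% of those of MT1E, 4.88% of those of MT2A, 45.1% of those of MT1X and 20.2% of those of MT1G also occurred in a transcript of another gene. No such stretch of SLC30A1 did. The split of reads between MT1X, MT1G and their relatives is therefore uncertain, while most of the MT1E transcript is its own.

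The promoter windows of SLC30A1 and MT2A are shown because both genes are textbook targets of MTF1, and of the pair SLC30A1 is the one called with the compounds. The windows come from RefSeq on GRCh38.p14, run from 250 bases before to 50 bases after the RefSeq start of the gene, and are written in the direction of the gene. This start is not that of the GENCODE gene span: for SLC30A1 it lies upstream of the span given with its values, and for MT2A it lies inside the GENCODE span. Capitals mark TGCACNC or TGCGCNC, the core of the metal response element, searched on both strands, with no other motif searched.
SLC30A1, chr1:211579112-211579411, minus strand: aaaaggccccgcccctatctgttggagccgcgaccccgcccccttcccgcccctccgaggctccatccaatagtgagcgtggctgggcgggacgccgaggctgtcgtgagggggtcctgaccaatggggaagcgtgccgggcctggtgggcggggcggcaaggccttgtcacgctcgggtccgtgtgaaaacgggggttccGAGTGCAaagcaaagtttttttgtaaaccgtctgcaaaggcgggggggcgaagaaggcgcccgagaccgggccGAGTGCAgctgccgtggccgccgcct
MT2A, chr16:56608334-56608633, plus strand: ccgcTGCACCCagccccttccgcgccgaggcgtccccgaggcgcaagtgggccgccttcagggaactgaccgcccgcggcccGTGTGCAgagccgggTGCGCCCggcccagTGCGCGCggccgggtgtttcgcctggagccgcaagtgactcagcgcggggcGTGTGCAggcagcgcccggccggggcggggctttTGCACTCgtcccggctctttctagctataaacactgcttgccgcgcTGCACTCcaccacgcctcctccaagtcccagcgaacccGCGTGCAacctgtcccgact
The SLC30A1 window held 2 matches, both reading as the reverse complement, with their first bases at -49 and 25 from the RefSeq start. The MT2A window held 8 matches, 5 as written and 3 as the reverse complement. MT1X had 4 matches and MTF1 had 0. Of 35116 windows of 300 bases, 29.6% held at least 1 match and 8.6% at least 2, so these are descriptions of letters and not of binding. Of the 8 members, 4 had a window in the table (MT1X, MT2A, MTF1 and SLC30A1), and MT1E, MT1F, MT1G and MT1M had none there.

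Of the 8 members, 4 had enough counts to be tested: MT1E, MT2A, MTF1 and SLC30A1. In A375 taken alone 2 had enough, MTF1 and SLC30A1, so MT1E and MT2A were tested through their counts in LOX-IMVI BR. Library totals ran from 11813388 to 25822381 counts. Levels are CPM, a library's counts scaled by its TMM-adjusted total, given per library or as mean ± SD (n = 2 libraries). Each difference was tested with edgeR's quasi-likelihood test over 29114 genes, and calls were made where the p adjusted by Benjamini and Hochberg's method was under 0.05. The 2 libraries of a group differed by a median of 0.13 to 0.20 on the log2 scale over tested genes in LOX-IMVI BR, and by 0.63 in A375 control, 0.69 in A375 with 6-thio-dG and 0.21 in A375 with BIBR1532. Estimated biological variation was 4.55% in LOX-IMVI BR alone, 36.1% in A375 alone and 25.8% in the shared fit, so the shared fit gives LOX-IMVI BR genes wider errors than their own libraries do. The summed level of 7 melanocyte lineage markers was 8.99 to 22.6 CPM in LOX-IMVI BR and 312 to 1463 CPM in A375, and that of 4 markers of dedifferentiated melanoma was 345 to 1087 CPM in LOX-IMVI BR and 268 to 1809 CPM in A375. Most of the A375 sum was SOX10, at 422 ± 194 CPM with 6-thio-dG, 1330 ± 116 CPM with BIBR1532 and 551 ± 55.3 CPM in control, against under 1 CPM in each LOX-IMVI BR group. The pigment genes PMEL, MLANA, TYR and DCT averaged under 5 CPM in all groups of both lines. Markers of epithelial cells stayed at or under 1.01 CPM and those of endothelial cells at or under 0.224 CPM in all libraries.

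SLC30A1 (chr1:211571568-211578742, minus strand, GRCh38 in GENCODE v29) was the member that rose furthest with either compound in LOX-IMVI BR. It stood at 54.1 and 54.4 CPM with 6-thio-dG, at 60.4 and 59.2 CPM with BIBR1532 and at 12.4 and 12.4 CPM in control. Both exposed groups lay far above control, with no overlap. With 6-thio-dG it averaged 54.2 ± 0.207 CPM against 12.4 ± 0.019 CPM in control, a log2 fold change of 2.13 ± 0.277 (SE) or 4.38-fold, with an edgeR adjusted p of 0.00019087. With BIBR1532 it averaged 59.8 ± 0.793 CPM against the same control, a log2 fold change of 2.27 ± 0.279 or 4.83-fold, with an edgeR adjusted p of 0.00034088. Both rises were called under each of 10 other settings and without each of the 4 libraries in turn.

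**Figure D1:**
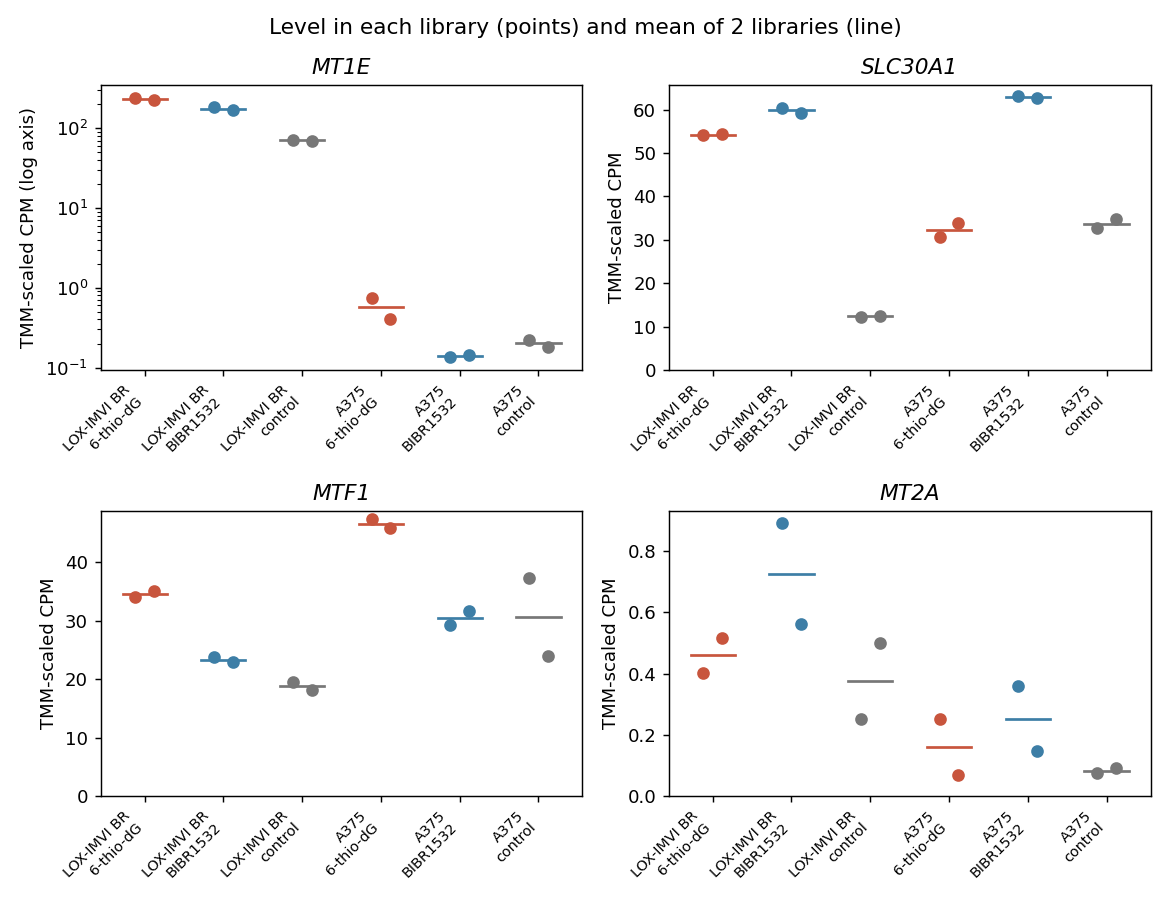
TMM-scaled CPM of the 4 tested members, with MT1E on a log axis. Each point is a library and each line the mean of 2 libraries, in the order 6-thio-dG, BIBR1532 and control within LOX-IMVI BR and then A375. SLC30A1 lies above 54 CPM in both exposed LOX-IMVI BR groups and at 12.4 CPM in their control, and MT1E is under 1 CPM in every A375 library.

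In A375, SLC30A1 rose with BIBR1532. It stood at 30.7 and 33.9 CPM with 6-thio-dG, at 63.1 and 62.6 CPM with BIBR1532 and at 32.6 and 34.8 CPM in control. The BIBR1532 libraries lay above control, and the 6-thio-dG libraries overlapped with it. With BIBR1532 it averaged 62.9 ± 0.392 CPM against 33.7 ± 1.51 CPM in control, a log2 fold change of 0.90 ± 0.267 or 1.87-fold, with an edgeR adjusted p of 0.0353. This call was lost without either BIBR1532 library (adjusted p of 0.222 without replicate 1 and 0.159 without replicate 2) and in the fit of A375 alone (0.225), without a filter on low counts (0.0540) and with the replicate block (0.0659), while correction for GC content gave 1.85 on the log2 scale (0.00638). With 6-thio-dG it averaged 32.3 ± 2.26 CPM against the same control, a log2 fold change of -0.06 ± 0.267 that did not pass (edgeR adjusted p of 0.896) and that turned to 1.07 with the GC correction (0.0560) and to 0.34 with upper-quartile scaling (0.473).

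Across the 6 groups, SLC30A1 was highest in A375 with BIBR1532 (62.9 CPM), then LOX-IMVI BR with BIBR1532 (59.8 CPM), LOX-IMVI BR with 6-thio-dG (54.2 CPM), A375 control (33.7 CPM), A375 with 6-thio-dG (32.3 CPM) and LOX-IMVI BR control (12.4 CPM). The neighbours A375 control and A375 with 6-thio-dG did not differ beyond their spread. The order between compounds, and between lines under BIBR1532, is a description and was not tested. LOX-IMVI BR control was lower than A375 control by a log2 fold change of -1.45 ± 0.273 (edgeR adjusted p of 0.00051). The exposed LOX-IMVI BR libraries stood above those of A375 control, although their own control stood below.

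The 6-thio-dG effect on SLC30A1 differed between the lines. The log2 fold change in LOX-IMVI BR minus that in A375 was 2.20 ± 0.381, with an edgeR adjusted p of 0.00397, and it was called in 7 of 9 other settings and without each of the 8 libraries involved. With GC correction the difference was 1.28 and did not pass (adjusted p of 0.129). The GC content of the SLC30A1 transcript is 38.0%. For BIBR1532 the difference was 1.37 ± 0.378 and just missed the threshold by edgeR (adjusted p of 0.0573), while 2 of 9 other settings called it, DESeq2 (adjusted p of 0.0012) and the fit of symbol-named genes alone (0.0493). It was also called without A375 control replicate 1 (0.0203) and without replicate 2 (0.0341). With GC correction it shrank to 0.15 ± 0.537 (0.887), the log2 fold changes being 2.00 in LOX-IMVI BR and 1.85 in A375.

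MT1E (chr16:56625475-56627112, plus strand, GRCh38) carried nearly all metallothionein counts in LOX-IMVI BR and rose with both compounds. Its counts were 5986 and 6618 with 6-thio-dG, 2694 and 3609 with BIBR1532 and 1420 and 1521 in control. In CPM these were 240.0 and 228 with 6-thio-dG, 185 and 169 with BIBR1532 and 71.3 and 69.2 in control. All exposed libraries lay above both controls. With 6-thio-dG the mean was 234 ± 8.34 CPM against 70.3 ± 1.47 CPM in control, a log2 fold change of 1.74 ± 0.286 or 3.33-fold, with an edgeR adjusted p of 0.00099, called under each of 10 other settings and without each of the 4 libraries. With BIBR1532 it was 177 ± 11.1 CPM against the same control, a log2 fold change of 1.33 ± 0.283 or 2.51-fold, with an edgeR adjusted p of 0.0156. The BIBR1532 call was lost without any 1 of the 4 libraries in the shared fit and with upper-quartile scaling (edgeR adjusted p of 0.0568). Without a library the size stayed between 1.27 and 1.39 on the log2 scale. In the fit of LOX-IMVI BR alone the edgeR adjusted p was 5.03e-17, but that fit called 44.8% of all genes with BIBR1532.

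In A375 MT1E was close to absent. Its counts were 9 and 6 with 6-thio-dG, 3 and 3 with BIBR1532 and 6 and 2 in control, all under 1 CPM. The log2 fold change was 1.40 ± 0.509 with 6-thio-dG (edgeR adjusted p of 0.0890) and -0.57 ± 0.592 with BIBR1532 (0.622), and neither passed. With 6-thio-dG it passed in 1 of 9 other settings, upper-quartile scaling (0.0412), and ran from 0.91 to 1.79 without a library. Pooled over the 2 libraries, the 6-thio-dG ratio was 2.64 with a 95% counting interval of 1.05 to 7.18. LOX-IMVI BR control exceeded A375 control by a log2 fold change of 8.34 ± 0.430 (edgeR adjusted p of 5.6e-09), and the ratio of the pooled counts was 332 with a counting interval of 168 to 769. The effect in LOX-IMVI BR minus that in A375 was 0.33 ± 0.649 for 6-thio-dG (adjusted p of 0.840) and 1.90 ± 0.667 for BIBR1532 (0.127), so the reported fit showed no difference in response for MT1E. For BIBR1532, 2 of 9 other settings called it, GC correction alone and with the replicate block (lowest edgeR adjusted p of 0.0394). Without a library that difference ran from 1.68 to 1.99.

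MT2A, the metallothionein most often abundant in human cells, had between 1 and 15 counts in each library, and whether this row holds all of its reads is not known, since rows of other abundant genes were also near 0. Its counts were 10 and 15 with 6-thio-dG, 13 and 12 with BIBR1532 and 5 and 11 in control of LOX-IMVI BR. In A375 they were 3 and 1 with 6-thio-dG, 8 and 3 with BIBR1532 and 2 and 1 in control. It was not called with either compound by edgeR, with log2 fold changes of 0.28 ± 0.556 and 0.88 ± 0.556 in LOX-IMVI BR (adjusted p of 0.807 with 6-thio-dG and 0.505 with BIBR1532) and of 0.86 ± 1.08 and 1.61 ± 0.887 in A375 (0.605 with 6-thio-dG and 0.228 with BIBR1532). The BIBR1532 libraries lay above control in CPM in both lines. Pooled BIBR1532 ratios were 1.82 in LOX-IMVI BR (counting interval of 0.934 to 3.65) and 3.23 in A375 (0.853 to 18.0). The 6-thio-dG ratios were 1.21 (0.623 to 2.43) and 1.88 (0.317 to 12.8). At such counts a change was neither shown nor excluded. LOX-IMVI BR control was higher than A375 control by 2.17 ± 0.830 (edgeR adjusted p of 0.0411), and the pooled counts of 16 and 3 gave a ratio of 4.81 with a counting interval of 1.38 to 25.8. That call was lost with DESeq2 (0.135), without A375 control replicate 1 (0.219) or replicate 2 (0.0816), and without LOX-IMVI BR control replicate 2 (0.272).

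The remaining metallothionein members were at or near 0. MT1F and MT1X were listed at 0 in all 12 libraries, MT1G had 17 counts in all with at most 5 in a library, and MT1M had 3. Other rows of the family were as low, with 2 counts in all for MT1A, 0 for MT1B, 4 for MT1H, 1 for MT1HL1, 2 for MT3 and 2 for MT4. Among 12 family rows present, taken as deposited, MT1E supplied 99.3% to 99.8% of the family's counts in LOX-IMVI BR and 20% to 60% in A375. A 0 in this table says only that a gene is listed at 0: of 80 rows of cytosolic ribosomal proteins, which every cell makes, 3 were at 0 in all 12 libraries and 17 had a median of at most 3 counts, and the beta-2-microglobulin row B2M held 1 count over all libraries. No 50-base stretch of B2M occurred in another gene, and the cause of these low rows was not tested.

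Per kilobase of transcript, MT1E in LOX-IMVI BR reached 321 CPM per kb with 6-thio-dG, 242 with BIBR1532 and 96.4 in control. On the same scale SLC30A1 had 9.91, 10.9 and 2.26 CPM per kb in these groups, and MTF1 had 4.33, 2.93 and 2.36. MT1E was thus the most abundant of the tested members in every LOX-IMVI BR group, even in control.

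MTF1 (chr1:37809567-37859620, minus strand, GRCh38), the sensor upstream of MT1E and SLC30A1, was moderately expressed in all libraries. It moved less than MT1E and SLC30A1 in LOX-IMVI BR. With 6-thio-dG in A375 its log2 fold change of 0.60 was larger than the -0.06 of SLC30A1. In LOX-IMVI BR it stood at 34.0 and 35.1 CPM with 6-thio-dG, at 23.7 and 22.9 CPM with BIBR1532 and at 19.4 and 18.2 CPM in control. In A375 it stood at 47.4 and 45.9 CPM with 6-thio-dG, at 29.2 and 31.7 CPM with BIBR1532 and at 37.3 and 23.9 CPM in control. The 6-thio-dG libraries lay above control in both lines, and the A375 controls were far apart. With 6-thio-dG the log2 fold change was 0.88 ± 0.292 in LOX-IMVI BR, which just missed by edgeR (adjusted p of 0.0519) and passed in 8 of 10 other settings, DESeq2 included (0.0105), but in none of the 4 fits without a library (0.222 to 0.314). In A375 it was 0.60 ± 0.291 (0.160), and passed with GC correction (0.90, adjusted p of 0.00514), with upper-quartile scaling (0.0368) and without control replicate 1 (0.95, 0.0233). With BIBR1532 it was 0.31 ± 0.291 in LOX-IMVI BR (0.693) and -0.01 ± 0.290 in A375 (0.992), where the sign turned with most scalings.

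Counting the 4 tested members, 2 were called with 6-thio-dG in LOX-IMVI BR, both higher, where 17% of all genes tested were called (9.81% higher and 7.16% lower). With BIBR1532 in LOX-IMVI BR 2 were called, both higher, where 3.59% of genes were called (2.9% higher and 0.69% lower). In A375, 0 were called with 6-thio-dG by edgeR, against 18.1% of genes (9.86% higher and 8.21% lower), with 1 at an unadjusted p under 0.05 (MT1E) and 0 by DESeq2. SLC30A1 was the 1 called with BIBR1532 in A375, against 15.8% of genes (8.49% higher and 7.29% lower). For the difference between the lines, 1 was called for 6-thio-dG, against 5.54% of genes (2.48% higher and 3.06% lower), and 0 for BIBR1532 by edgeR, against 3.64% (2.09% higher and 1.55% lower), with 2 at an unadjusted p under 0.05 and 1 by DESeq2. Between the control groups 3 were called, MT1E and MT2A higher and SLC30A1 lower in LOX-IMVI BR, against 49.8% of genes (21.1% higher and 28.8% lower). MT1E and MT2A passed the filter on counts only through LOX-IMVI BR, so a higher call in that line was favoured beforehand. The comparisons with each compound share the control libraries of a line. These shares of all genes depend on single libraries: without 1 library they ran from 4.9% to 5.94% with 6-thio-dG and from 0.661% to 1.27% with BIBR1532 in LOX-IMVI BR, and from 14.2% to 32.8% with 6-thio-dG and from 2.97% to 16.7% with BIBR1532 in A375.

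**Figure D2:**
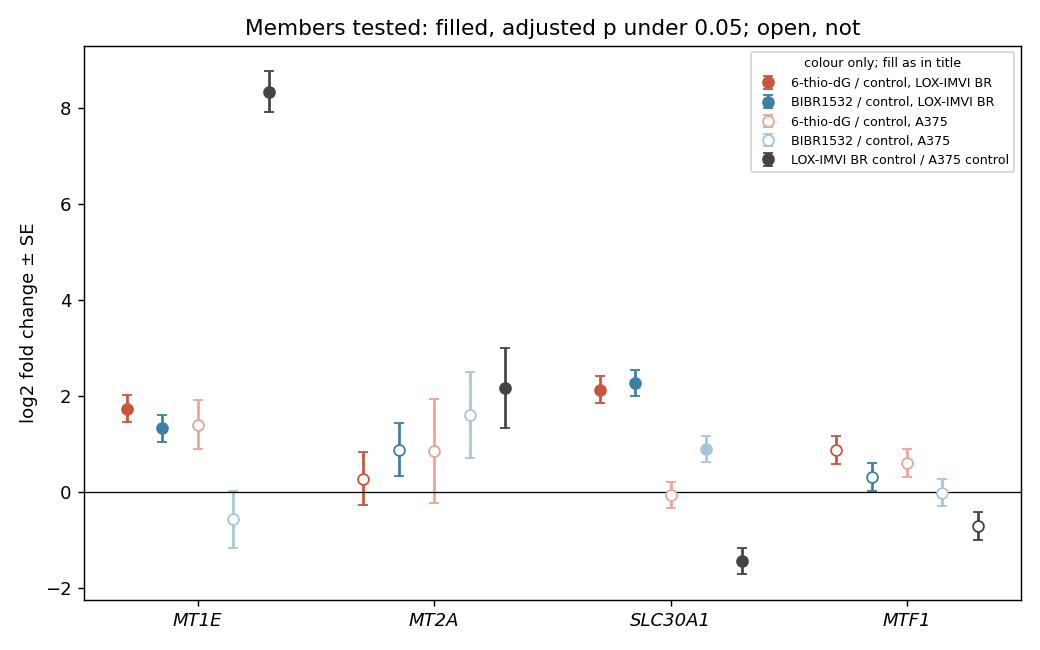
Log2 fold changes ± SE of the 4 tested members in 5 comparisons, from the edgeR fit of all 12 libraries. Filled points have an adjusted p under 0.05. SLC30A1 and MT1E are above 1 and filled for both compounds in LOX-IMVI BR, and the MT1E difference between the controls of the lines is 8.34.

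**Figure D3:**
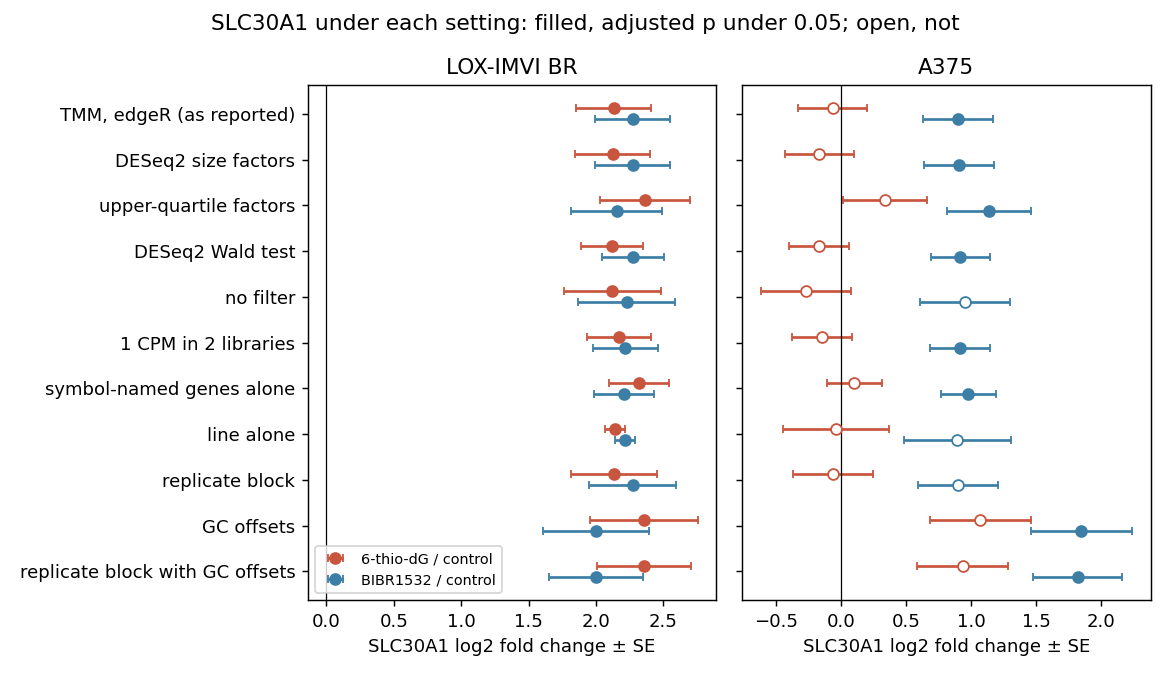
SLC30A1 log2 fold change ± SE of each compound against control under the reported fit and 10 other settings, in LOX-IMVI BR on the left and A375 on the right. Filled points have an adjusted p under 0.05. In LOX-IMVI BR every point is filled and lies between 2.00 and 2.36, while in A375 the 6-thio-dG points run from -0.27 to 1.07.

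Among the zinc exporters, SLC30A1 was the 1 called with either compound in LOX-IMVI BR by the shared fit. Of 10 SLC30 genes 7 were tested, so 1 of 7 stands beside 17% of all genes called with 6-thio-dG and 3.59% with BIBR1532, with a median log2 fold change of -0.19 over the 7 with 6-thio-dG and 0.18 with BIBR1532, against 0.05 and 0.04 over all genes. The fit of LOX-IMVI BR alone, with 6 tested, called 1 higher and 3 lower with 6-thio-dG, and 2 higher and 1 lower with BIBR1532, where SLC30A6 was the other exporter that rose (0.59 on the log2 scale, edgeR adjusted p of 7.34e-10). In that fit 62.8% of all genes were called with 6-thio-dG and 44.8% with BIBR1532. Of those calls, 51% and 51.5% were higher. In A375 SLC30A9 fell with both compounds, to 13.1 ± 12.6 CPM with 6-thio-dG and 13.2 ± 3.99 CPM with BIBR1532 against 53.0 ± 3.96 CPM in control (log2 fold changes of -2.0 and -2.01, edgeR adjusted p of 0.0173 and 0.0197). SLC30A5, which loads zinc into the secretory pathway, fell with BIBR1532 in A375 by 1.05 on the log2 scale (adjusted p of 0.0193). In the edgeR fit of A375 alone neither gene was called.

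Zinc importers of the SLC39 family were tested for 12 of 14 genes. In LOX-IMVI BR with 6-thio-dG, 1 rose and 2 fell, beside 9.81% of all genes called higher and 7.16% lower. SLC39A8, a plasma membrane importer of zinc and manganese, fell to 9.64 ± 0.469 CPM against 25.8 ± 0.612 CPM in control (log2 fold change of -1.42 ± 0.346, edgeR adjusted p of 0.0113). SLC39A14, an importer of zinc, iron and manganese, fell by 0.89 on the log2 scale (0.0331), and SLC39A5 rose to 1.03 ± 0.136 CPM against 0.333 ± 0.044 CPM in control (0.0287). With BIBR1532 in LOX-IMVI BR 0 importers were called by edgeR, 0 at an unadjusted p under 0.05 and 0 by DESeq2. In A375, where 18.1% of all genes were called with 6-thio-dG and 15.8% with BIBR1532, SLC39A5 was the 1 called, higher with 6-thio-dG (1.07 ± 0.099 CPM) and with BIBR1532 (0.377 ± 0.153 CPM) than in control (0.0374 ± 0.0529 CPM), all close to the floor of counting.

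SLC39A10, chosen after its values were seen, is a plasma membrane zinc importer that MTF1 is known to repress in mouse. It stood at 49.2 and 49.8 CPM with 6-thio-dG, at 88.1 and 101 CPM with BIBR1532 and at 212 and 208 CPM in control of LOX-IMVI BR. Both exposed groups lay below control without overlap. In the shared fit the log2 fold changes of -2.09 ± 0.754 with 6-thio-dG and -1.15 ± 0.734 with BIBR1532 did not pass (edgeR adjusted p of 0.0741 and 0.518). In the fit of LOX-IMVI BR alone they were -2.07 ± 0.058 and -1.20 ± 0.056 (adjusted p of 1.85e-23 and 5.03e-17), where 62.8% and 44.8% of all genes were called. In A375 the 6-thio-dG libraries held 4 and 172 counts of this gene, and these libraries enter the same estimate of spread. With BIBR1532 in A375 SLC39A10 averaged 2.08 ± 1.10 CPM against 11.5 ± 1.00 CPM in control, without overlap. That log2 fold change of -2.47 ± 0.813 just missed by edgeR (adjusted p of 0.0532), and with 6-thio-dG it was -0.93 ± 0.767 (0.417). The LOX-IMVI BR fit alone, added after the data were seen, called 8 of 12 importers lower and 1 higher with 6-thio-dG, and 5 lower and 2 higher with BIBR1532. Of all genes that this fit called, 51% were higher with 6-thio-dG and 51.5% with BIBR1532.

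**Figure D4:**
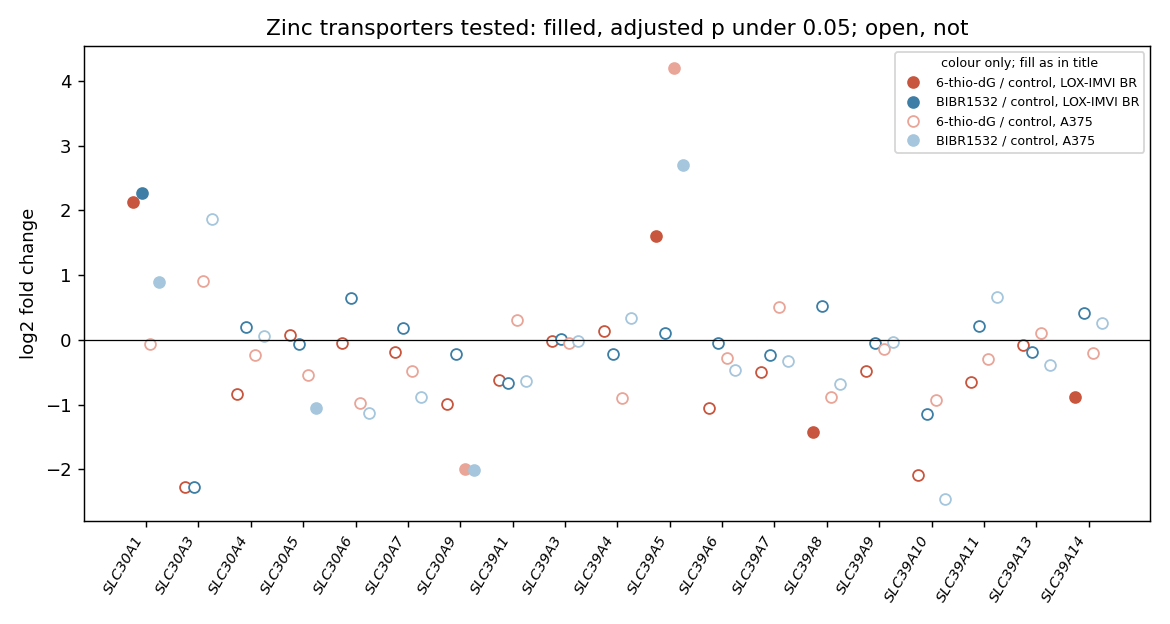
Log2 fold changes of the 19 tested zinc transporters, exporters (SLC30) left and importers (SLC39) right, for each compound against control in each line, from the fit of all 12 libraries. Filled points have an adjusted p under 0.05. SLC30A1 is the exporter that is filled above 0, and SLC39A10 is open at -2.09 with 6-thio-dG in LOX-IMVI BR.

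Genes of copper handling were followed because metallothioneins also bind copper. Of 11 tested, 0 rose and 2 fell with 6-thio-dG in LOX-IMVI BR: STEAP3, a metalloreductase, to 101 ± 1.60 CPM against 356 ± 3.67 CPM in control (edgeR adjusted p of 0.0012), and ATP7B, a copper exporter, to 4.50 ± 0.072 CPM against 10.5 ± 1.61 CPM (0.0107). Of all genes, 7.16% were called lower there. LOX-IMVI BR alone gave 1 higher and 7 lower of 11 with each compound. In that fit 62.8% of all genes were called with 6-thio-dG and 44.8% with BIBR1532. Of those calls, 51% and 51.5% were higher. With 6-thio-dG in A375, beside 18.1% of all genes, STEAP2 and the copper importer SLC31A1 fell, by 1.68 and 0.99 on the log2 scale (0.00925 and 0.0181). With BIBR1532 0 were called by edgeR in either line, with 2 at an unadjusted p under 0.05 in each, and by DESeq2 0 in LOX-IMVI BR and 1 in A375.

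Genes known to respond to other inducers of metallothioneins were counted as well, and what induced the members was not tested. Of 8 genes of metal and oxidative stress, 3 rose and 0 fell with 6-thio-dG in LOX-IMVI BR (GCLM of glutathione synthesis by 1.29, the thioredoxin reductase TXNRD1 by 1.22 and the chaperone HSPA1A by 1.16 on the log2 scale, edgeR adjusted p of 0.0184, 0.0315 and 0.0218), beside 9.81% of all genes called higher and 7.16% lower. LOX-IMVI BR alone called 8 of 8 higher with 6-thio-dG, and 4 higher and 3 lower with BIBR1532. In that fit 62.8% of all genes were called with 6-thio-dG and 44.8% with BIBR1532. Of those calls, 51% and 51.5% were higher. With BIBR1532 in LOX-IMVI BR 0 rose and HSPA1A fell to 16.6 ± 4.32 CPM against 59.5 ± 3.96 CPM in control (0.00508) in the shared fit, beside 2.9% of all genes called higher and 0.69% lower. In A375 with 6-thio-dG 4 rose and 1 fell, led by HSPA1A (4.33) and HMOX1, heme oxygenase (3.07), beside 9.86% of all genes called higher and 8.21% lower. The fit of A375 alone called 3 higher and 0 lower. That fit called 5.11% of all genes with 6-thio-dG and 3.85% with BIBR1532, and 60.4% and 85.5% of those calls were higher. In A375 with BIBR1532 HMOX1 rose by 1.32 and HSPA1A by 1.20, and the cystine importer SLC7A11 fell by 1.95 (0.0169, 0.0260 and 0.0222), beside 8.49% of all genes called higher and 7.29% lower, and none of these 3 was called in A375 alone. HSPA1A has a near-identical copy, so its own level is uncertain.

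Of 7 glucocorticoid targets tested, 0 rose and 2 fell with 6-thio-dG in LOX-IMVI BR: CEBPD to 10.5 ± 0.251 CPM against 90.8 ± 0.414 CPM in control (edgeR adjusted p of 0.00014072) and FKBP5 to 14.9 ± 1.01 CPM against 52.3 ± 0.151 CPM (0.00304), beside 9.81% of all genes called higher and 7.16% lower. With BIBR1532 in LOX-IMVI BR 1 rose, the phosphatase DUSP1, to 193 ± 8.53 CPM against 39.5 ± 0.703 CPM in control (0.00132), beside 2.9% of all genes called higher. LOX-IMVI BR alone called 0 higher and 5 lower of 7 with 6-thio-dG, and 5 higher and 0 lower with BIBR1532, where 62.8% and 44.8% of all genes were called. Of those calls over all genes, 51% and 51.5% were higher. In A375 CEBPD rose by 1.58 with 6-thio-dG and 2.33 with BIBR1532 on the log2 scale (0.0134 and 0.00157), and FKBP5 and DUSP1 fell with 6-thio-dG by 2.17 and 1.48 (0.00166 and 0.00831). Of all genes in A375, 9.86% were called higher and 8.21% lower with 6-thio-dG, and 8.49% higher and 7.29% lower with BIBR1532. The fit of A375 alone called 1 lower with 6-thio-dG and 1 higher with BIBR1532, where 5.11% and 3.85% of all genes were called. Of those calls over all genes, 60.4% and 85.5% were higher.

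Markers of other cell types also moved in LOX-IMVI BR with 6-thio-dG. The 3 fibroblast markers summed to 6.74 to 6.79 CPM with 6-thio-dG, to 27.5 to 30.9 CPM with BIBR1532 and to 58.4 to 60.7 CPM in control, most of it PDGFRA. The 3 leukocyte markers summed to 1.35 to 2.37 CPM with 6-thio-dG, to 0.0936 to 0.274 CPM with BIBR1532 and to 0.137 to 0.201 CPM in control, mostly PTPRC, with 1 marker at 0 counts in the 6-thio-dG group. In A375 the fibroblast sum went the other way, to 4.68 to 9.60 CPM with 6-thio-dG and 5.14 to 5.74 CPM with BIBR1532. It was 2.54 to 3.18 CPM in A375 control. The part of these markers in the rises of SLC30A1 and MT1E was not tested.

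Within LOX-IMVI BR the levels of MT1E and SLC30A1 went together, with a Pearson correlation of 0.96 over its 6 libraries, which share their groups and so mostly restate the group means. Within A375, where MT1E was near 0, it was -0.71 over 6 libraries, and over all 12 it was -0.08. The genes most like SLC30A1 over the 12 libraries, among 10196 with a mean of at least 5 CPM, were IL20RB (r = 0.89), EDA2R (0.88), UBASH3B (0.87), CYFIP2 (0.86) and LRRC57 (0.85). CYFIP2, a partner of actin regulators, had a like layout within LOX-IMVI BR. It stood there at 41.4 and 46.1 CPM with 6-thio-dG, 45.5 and 56.8 CPM with BIBR1532 and 10.2 and 11.2 CPM in control. In A375 it stood at 55.1 and 43.1 CPM with 6-thio-dG, 111 and 111 CPM with BIBR1532 and 59.4 and 65.6 CPM in control. Unlike SLC30A1, its exposed LOX-IMVI BR libraries lay below A375 control. Its rise with BIBR1532 in A375 did not pass (edgeR adjusted p of 0.0574). IL20RB, an interleukin receptor subunit, rose with BIBR1532 in both lines and with 6-thio-dG in LOX-IMVI BR (edgeR adjusted p of 0.00128 in A375, 0.00053 and 0.00535 in LOX-IMVI BR). These genes were picked for their likeness to SLC30A1 in the same libraries, so rises in the same groups were favoured by the choice. The genes most like the summed metallothioneins were CACNA2D4 (r = 0.996), KRT34 (0.994), ADAMTS1 (0.992), SYT9 (0.991) and ZNF280B (0.989), correlations set mainly by the difference between the lines.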

How the data were processed

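Whole-number counts per gene, not normalized, were deposited by the authors for 12 libraries of 2 melanoma cell lines. Per the labels' protocols, RNA was extracted with TRIzol and libraries were made with a kit that does not keep the strand, so overlapping genes on opposite strands cannot be separated. Per the submitters' processing notes, builds hg19 and GRCh37 and the tools GATK, Picard, featureCounts 1.5.1 and STAR were used, and no role is stated for any. The coordinates and sequences printed come from GRCh38 annotation by gene name and were not used for counting.

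From these counts, 4 rows with 2 ambiguous date-like names were dropped. Genes were filtered with filterByExpr, scaled by TMM and fitted in edgeR 4.0.16 (R 4.3.3, limma 3.58.1) with 1 mean for each of the 6 groups and a robust quasi-likelihood fit with 6 residual degrees of freedom. There were 29114 genes tested, and 7 comparisons, each adjusted by the Benjamini-Hochberg method with a threshold of 0.05. Levels on the log2 scale used a prior count of 2. The fit was also run on simulated counts that gave both lines the same spread, so their unequal spread was not tested by it. Alternatives were other scalings, DESeq2 1.42.0, other filters, symbol-named genes alone, the line alone, GC offsets, a replicate block and leaving out each library. P-values measure the spread between cultures labelled as biological replicates. Intervals cover counting error only and are exact conditional intervals at 95%.

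The members, lists and tests were chosen with earlier results of these data known. Named were all members, every other metallothionein row, up to 4 called members of each list per compound and line by adjusted p, and the 5 genes most correlated with SLC30A1 and with the summed metallothioneins. The text gives a selection. Sequences were read with Biopython 1.88 from GENCODE v29 and RefSeq tables.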

Additional observations from a re-analysis of the deposited data

Results flagged for a closer look

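The 6-thio-dG effect on SLC30A1 differed between the lines by a test of the difference itself. The log2 fold change was 2.13 in LOX-IMVI BR and -0.06 in A375, and the difference of 2.20 had an edgeR adjusted p of 0.00397. With GC offsets it was 1.28 (adjusted p of 0.129).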

How the results depend on the processing

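The rises of SLC30A1 in LOX-IMVI BR with both compounds, and of MT1E with 6-thio-dG, kept direction and call under every setting run. The number of the 4 tested members called moved in all 7 comparisons, by more than 1.5 times in 5 of them. With 6-thio-dG in A375 it was 0, against 2 with upper-quartile scaling and 1 with GC offsets, with or without the replicate block. With BIBR1532 in A375 it was 1, against 0 without a filter, in the line alone and with the replicate block. With BIBR1532 in LOX-IMVI BR it was 2, against 1 with upper-quartile scaling and 3 in the line alone. With 6-thio-dG in LOX-IMVI BR it was 2, against 3 in 8 of 10 settings, which added MTF1, and between controls 3, against 4 with DESeq2 size factors and 2 with the replicate block. For the difference between lines it was 1 for 6-thio-dG, against 0 with GC offsets, alone or with the block, and 0 for BIBR1532, against 1 with DESeq2, with GC offsets, alone or with the block, and with symbol-named genes alone. Leaving out 1 library gave 0 to 1 with either compound in A375 and for the BIBR1532 difference, 1 to 1 with BIBR1532 in LOX-IMVI BR and 2 to 3 between controls. The causes were not tested.

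Signs turned as follows, on the log2 scale. SLC30A1 with 6-thio-dG in A375 (-0.06) became 0.34 with upper-quartile scaling, 1.07 with GC offsets, 0.94 with block and GC offsets and 0.10 with symbol-named genes alone. MTF1 with BIBR1532 in A375 (-0.01) became 0.014 with DESeq2 size factors, 0.22 with upper-quartile scaling, 0.016 with DESeq2, 0.022 without a filter, 0.0069 with the 1 CPM filter, 0.015 with the replicate block and 0.049 with symbol-named genes alone. The MTF1 difference for BIBR1532 (0.32) became -0.030 with upper-quartile scaling. Without 1 library, ranges that cross 0 were -0.23 to 1.57 for MT2A and -0.15 to 0.0015 for SLC30A1 with 6-thio-dG in A375, -0.29 to 0.35 for MTF1 with BIBR1532 in A375 and -0.13 to 0.84 for MT2A with 6-thio-dG in LOX-IMVI BR. For the differences between lines they were -0.087 to 0.56 for MTF1, -1.31 to 0.49 for MT2A and -0.073 to 0.81 for MT1E with 6-thio-dG, and -1.27 to 0.060 for MT2A and -0.047 to 0.60 for MTF1 with BIBR1532.

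Whether replicate numbers pair the samples was not settled. The within-line correlation of same-numbered deviations was 0.35 between A375 with 6-thio-dG and A375 with BIBR1532. The other within-line pairs of groups ran from -0.14 to 0.03. With the replicate block the SLC30A1 rise with BIBR1532 in A375 had an adjusted p of 0.0659 and the MT2A difference between controls 0.136.

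Over all genes, calls moved by more than 1.5 times in the line alone (A375 1227 against 5261 with 6-thio-dG and 924 against 4594 with BIBR1532, LOX-IMVI BR 15119 against 4939 and 10802 against 1046) and with symbol-named genes alone (2770, 2169, 2243 and 534 in the same order, 587 for the BIBR1532 difference and 7896 between controls). For the line differences they were 1612 and 1059, against 2507 and 3002 without a filter, 2794 and 2297 with GC offsets, 2466 and 2146 with block and GC offsets, and 2047 for BIBR1532 with DESeq2. GC offsets gave 1675 with BIBR1532 in LOX-IMVI BR and 9057, or 8270 with the block, against 14505 between controls, over fewer genes. Leaving out 1 library gave 4461 to 10233 (highest without 6-thio-dG replicate 2) and 937 to 5272 (937 and 984 without BIBR1532 replicates 1 and 2) in A375, 1550 to 1864 and 209 to 402 in LOX-IMVI BR, 475 to 6808 and 142 to 2268 for the line differences and 10264 to 13673 between controls, so the shares of all genes called depend on single libraries. Upper-quartile scaling moved the share of calls that were higher to 80% against 54.6% and 66.4% against 53.8% in A375, 73.5% against 57.8% with 6-thio-dG in LOX-IMVI BR and 38.1% against 57.5% for the BIBR1532 difference, with medians moved by up to 0.39. GC offsets gave 44% and 39.5% in A375, 44.8% and 52.4% (against 80.8%) in LOX-IMVI BR and 57.7% against 42.3% between controls.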
